A study of Drosophila melanogaster with 15 samples.

Results

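The 9 kinesin genes Khc, ncd, nod, sub, pav, Klp3A, Klp10A, Klp61F and Klp67A of Drosophila melanogaster were followed through early embryogenesis, by taking each probe set whose only gene symbol in the platform annotation is one of them. Of the 9 genes 6 had such a probe set, 1 each, among 10844 genes that the table names and 14010 probe sets in all. Khc, pav and Klp3A were not analysed here. All 6 measured genes encode motors of the meiotic or mitotic spindle, so that the transport motor Khc is not covered by any value below. The members were chosen by name, though with earlier results of these data known.

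RNA of whole embryos of yellow white and Oregon R flies was hybridised to Affymetrix arrays, with 3 arrays for each of 5 stages and 15 arrays in all. The labels name both stocks, as parents for T0 and T1 and as embryos for T2 to T4, and do not say whether they were mixed. T0 embryos were younger than nuclear cycle 9, with maternal RNA and no pole cells yet. Cellularisation was in its slow phase at T1 and in its fast phase at T2. Germ band elongation had begun at T3 and ended at T4 per the sample labels, whereas the series text speaks of gastrulation there. Eggs were collected for 30 min at 25 °C, aged at room temperature and sorted by hand, and nothing in the labels ties the arrays of a stage to separate collections. The p-values therefore cover the spread of these arrays alone, and that spread may be technical. Signals are in array units with a trimmed mean of 100 on every array, and every change below is relative to that mean. The 95th percentile of the negative-control probe sets, 21.96, served as the level below which a signal was not taken as detected. A gene is named measured here where it has a probe set, whatever its signal. Arrays of 1 stage correlated with r between 0.925 and 0.964 over all probe sets. Markers set T0 and T1 apart, and no list was specific to T2 or to T3. T4 had the highest sums of germ band markers, but none of these markers was called for T4 against T3. The 7 zygotic cellularisation markers summed to between 28066 and 30829 on the T1 arrays, against 1367 to 1670 on the T0 arrays, and 5 measured markers of gastrulation and germ band to between 1295 and 1341 at T4, against 43.5 to 63.0 at T0. At T2 the cellularisation markers summed to between 8389 and 9128 and the germ band markers to between 574 and 775. At T3 the sums were 4599 to 5032 and 1044 to 1167. The ratio of the 3′ to the 5′ actin control probe set, a measure of RNA integrity, lay between 1.54 and 3.36 over all arrays. The same ratio lay between 2.61 and 4.57 for eIF-4a and between 0.226 and 8.35 for GAPDH. The number of arrays limits the precision.

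Kinesins are motor proteins that use ATP to walk along microtubules, or to shorten them, through a conserved motor domain. In the early fly embryo nuclei divide in rapid synchronous cycles within a common cytoplasm, and the motors for these spindles come from RNA and protein that the mother loads into the egg. During cellularisation the nuclei pause in a long interphase, and mitoses resume in patterned domains during gastrulation, by which time much maternal RNA has been removed and the zygotic genome is active. Signals of whole embryos do not show where in the embryo an RNA lies or how much of it each cell holds.

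The 6 genes fell into different time courses. The RNA of nod was high at T0, near background during cellularisation and partly restored by the end of germ band elongation. Klp10A declined in steps to a low at T2 and T3. Klp61F, ncd and Klp67A stayed within a factor of 1.84, 1.68 and 2.09 between their lowest and highest stage means, whereas the factor was 20.2 for nod and 5.22 for Klp10A. The signal of sub was low, with stage means between 20.6 and 42.6 beside the negative-control level of 21.96. A gene was called higher or lower where limma gave an adjusted p under 0.05 together with a log2 fold change of 1 or more in either direction, on the scale of log2(signal + 7.3). In a moderated F test over the stages 5 of the 6 genes had an adjusted p under 0.05, against 44.1% of all probe sets, and sub did not (adjusted p = 0.12 in limma). With arrays centred on the hybridisation-control probe sets 2 of the 6 passed it, nod and Klp10A.

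**Figure D1:**
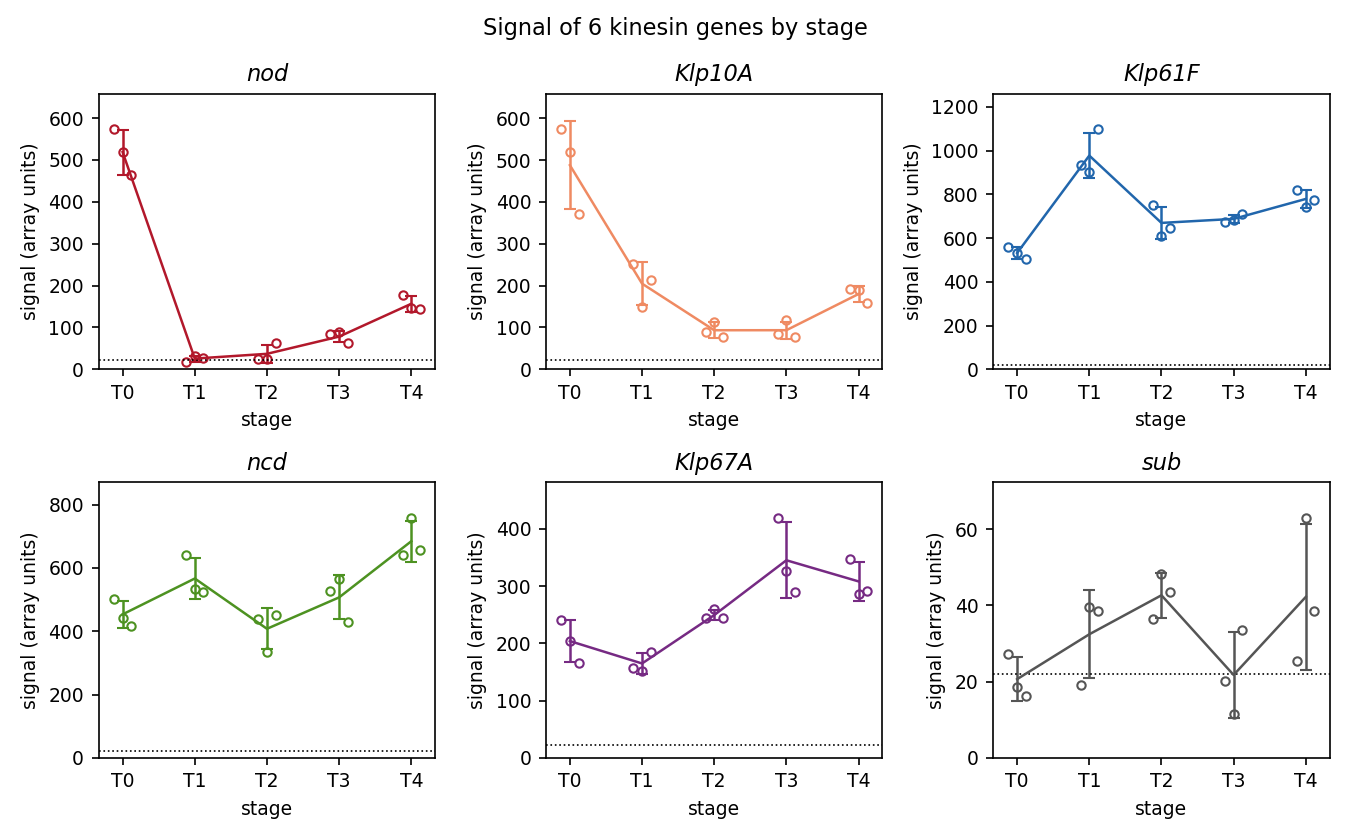
Signal in array units (y axis, starting at 0) of the 6 kinesin genes at stages T0 to T4 (x axis); open circles are single arrays in order of replicate number, the line joins stage means, bars are the SD of 3 arrays, and the dotted line is the negative-control level of 21.96. The nod signal is close to the dotted line at T1 and T2, and Klp10A has its low at T2 and T3. The stage means of sub are close to the dotted line at T0 and T3, and all its T2 and T4 arrays lie above it.

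The first genes are those known from female meiosis. The protein Nod is a chromokinesin that pushes chromosomes without crossovers towards the middle of the oocyte spindle. Its signals were 572.8, 518.4 and 465.0 at T0, then 17.6, 32.0 and 27.4 at T1, 24.7, 24.2 and 62.2 at T2, 83.9, 88.5 and 62.2 at T3 and 178.4, 147.4 and 143.8 at T4. All T0 arrays lay far above all others, and 1 of the 3 arrays at T1 lay below the negative-control level. The mean was 25.7 ± 7.35 at T1 and 519 ± 53.9 at T0 (SD, n = 3 each), 20.2-fold lower, with a log2 fold change of -4.02 ± 0.29 (SE) and a limma adjusted p of 1.3e-07. Among all probe sets this change stood at the 0.909th percentile. Under the 4 other scalings of the arrays it lay between -4.61 and -3.84.

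The nod signal returned in part at the later stages. At T2 the mean was 37.0 ± 21.8, with T2 replicate 4 at 62.2 apart from the other two arrays, and T2 did not differ from T1 by the test (adjusted p = 0.53). T3 averaged 78.2 ± 14.05, and the step from T2 had a log2 fold change of 1.04 with an adjusted p of 0.10, but 1.42 with 0.014 without T2 replicate 4. T4 averaged 157 ± 19.0, 2.00 times the T3 mean, without overlap of the arrays but with a limma adjusted p of 0.15. Over the longer interval, a comparison added after the values were seen, nod rose to 6.10 times its T1 level by T4 (log2 fold change 2.33 ± 0.29 (SE), adjusted p = 3.5e-05 in limma), when 12.6% of all probe sets were called higher. It was also higher at T4 than at T2, by 1.98 on the log2 scale (adjusted p = 0.00062 in limma), where 4.77% of all probe sets were. This comparison too was added after the values were seen. The nod signal nevertheless remained lower at T4 than at T0, by 3.31-fold (log2 fold change -1.68 ± 0.29 (SE), adjusted p = 0.00042).

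Pole cells are the germ line precursors that carry much of the maternal germ plasm RNA. Of 7 listed pole cell markers 6 were measured. They summed to between 626 and 698 at T1 and between 3764 and 4594 at T0. Of the 6, 5 were called lower at T1 than at T0, against 22.8% of all probe sets called in either direction. The gene vas was at or below the negative-control level on every T1 array. The uncalled gene, aub, went the other way, with 266 ± 18.8 at T1 and 144 ± 22.8 at T0. The part of these markers in the nod result was not tested. At T4 the same markers summed to between 260 and 299. T0 embryos had no pole cells yet, so the T0 sums are of maternal RNA and do not measure pole cells.

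The second meiotic gene, sub, encodes Subito, a kinesin-6 of the central spindle that is needed for bipolar spindles in oocytes. Its signals were 27.1, 18.6 and 16.2 at T0, 19.1, 39.5 and 38.6 at T1, 36.4, 48.1 and 43.4 at T2, 20.2, 11.4 and 33.6 at T3 and 25.3, 62.9 and 38.4 at T4. At T0 and at T3 2 of 3 arrays lay at or below the negative-control level, and 1 did at T1. The highest and lowest stage means were 42.6 ± 5.89 at T2 and 20.6 ± 5.73 at T0, and in none of the 5 comparisons was sub called. The farthest of the 5 from 0 was a log2 fold change of -0.85 for T3 against T2, with a 95% interval from -1.58 to -0.12 and a limma adjusted p of 0.27. For T4 against T0 it was called higher only without T4 replicate 1 (1.04, adjusted p = 0.043), against 0.77 with all arrays. The SE of each of its log2 fold changes was 0.34, which limits what could be detected at signals this low. The sister kinesin-6 gene pav was not analysed here.

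The next genes build and hold the bipolar spindle. Klp61F is the fly kinesin-5, which crosslinks antiparallel microtubules and slides spindle poles apart. It had 558.4, 532.3 and 505.1 at T0, 934.5, 900.8 and 1096.7 at T1, 749.9, 610.3 and 648.3 at T2, 674.0, 681.1 and 708.6 at T3 and 820.2, 741.1 and 776.0 at T4. Every T0 array was below every later array, and every T1 array was above every other. The mean was 977 ± 105 at T1 and 532 ± 26.7 at T0, a ratio of 1.84 with a log2 fold change of 0.86 ± 0.16 (SE). Its limma adjusted p was 0.00078, but the size was under 1, so that it was not called. It passed with arrays centred on the array median (1.04), and was 0.27 under the ribosomal centring (adjusted p = 0.33) and 0.36 under the hybridisation-control centring (adjusted p = 0.41). T2 stood below T1 by 0.54 on the log2 scale (adjusted p = 0.041 in limma), also under the size threshold. From T2 on its stage means lay between 670 and 779.

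Ncd, a kinesin-14, walks to the minus end and focuses spindle poles in the oocyte and the embryo. Its signals were 501.0, 441.8 and 417.3 at T0, 640.2, 534.8 and 524.9 at T1, 438.8, 333.5 and 451.0 at T2, 526.4, 564.8 and 429.8 at T3 and 639.6, 757.9 and 655.6 at T4. Its adjusted p in the F test was 0.035, and 0.31 with the hybridisation-control centring. The order of its stage means was T4, T1, T3, T0 and T2, and the arrays of each stage overlapped with those of the next in this order. The highest mean was 684 ± 64.2 at T4 and the lowest 408 ± 64.6 at T2, and a comparison of both, added after the values were seen, gave a log2 fold change of 0.75 ± 0.19 (SE) with a limma adjusted p of 0.020. T4 exceeded T0 by 0.59 on the log2 scale (95% interval from 0.18 to 0.99, adjusted p = 0.028), which was under the size threshold and turned to -0.12 with arrays centred on ribosomal proteins. T1 exceeded T0 by 0.32 (adjusted p = 0.26), which turned to -0.28 with the ribosomal and -0.19 with the hybridisation-control centring.

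Klp61F and Ncd are known to oppose each other in sliding the poles of embryonic spindles, and their changes were set side by side. The log2 change of ncd minus that of Klp61F was -0.55 ± 0.15 (SE) for T1 against T0, taken within arrays, where the scaling largely cancels. In an exact two-sided permutation test its p was 0.1, the smallest that 3 arrays against 3 allow, and 0.115 after Benjamini-Hochberg adjustment over 15 gene pairs. For T4 against T0 the same difference was 0.04 ± 0.12 (SE), with an exact permutation p of 0.8.

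The third set shortens microtubules. Klp10A, a kinesin-13, removes tubulin from minus ends at spindle poles. It had 573.1, 520.3 and 370.0 at T0, 251.6, 148.8 and 214.0 at T1, 89.2, 113.7 and 77.3 at T2, 85.2, 117.0 and 78.3 at T3 and 192.7, 189.1 and 158.1 at T4. The T0 arrays were all above the T1 arrays, and these all above the arrays of T2 and of T3. The mean was 205 ± 52.0 at T1 and 488 ± 105 at T0 (log2 fold change -1.23 ± 0.25 (SE), limma adjusted p = 0.0014), 2.38-fold lower, and it was called lower under all 4 other scalings, with values from -1.82 to -1.06. T2 averaged 93.4 ± 18.6, which was 2.19-fold lower than T1 (-1.06 ± 0.25 (SE), adjusted p = 0.011). This second call lay close to the size threshold. It ended after quantile normalization (-0.94), with the hybridisation-control centring (-0.88), with a pseudocount at the median signal (-0.92), with the replicate number as a block (-0.90), with the 6 arrays alone (adjusted p = 0.055) and without T1 replicate 1 or T2 replicate 4 (-0.90 and -0.94). T1 replicate 1 had the highest GAPDH 3′ to 5′ ratio of the 15 arrays, 8.35, and T2 replicate 4 the lowest, 0.226, and the part of this in the Klp10A and nod values was not tested. T3 averaged 93.5 ± 20.6, level with T2 at a log2 difference of -0.0018 and a 95% interval from -0.54 to 0.53.

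At T4 Klp10A averaged 180 ± 19.0, with all arrays above those of T3, at a log2 fold change of 0.91 and a limma adjusted p of 0.0998. T4 against T2, added after the values were seen, gave 0.91 with an adjusted p of 0.029, under the size threshold, and 1.05 without T2 replicate 3. It was called lower at T4 than at T0 by 2.71-fold (-1.38 ± 0.25 (SE), adjusted p = 0.00057). At T4 the level overlapped with that of T1 (limma adjusted p = 0.72, a comparison also added after the values were seen).

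Klp67A, a kinesin-8, shortens plus ends and limits spindle length. Its signals were 240.8, 204.7 and 166.4 at T0, 156.9, 152.3 and 185.3 at T1, 244.6, 259.4 and 244.1 at T2, 419.0, 326.8 and 289.6 at T3 and 347.3, 285.9 and 291.4 at T4. The T1 arrays overlapped with those of T0 and were all below those of the 3 later stages. The highest stage mean was 345 ± 66.6 at T3 and the lowest 165 ± 17.9 at T1. The next comparison is of these extremes, and its adjusted p does not cover that choice. For T3 against T1, added after the values were seen, it rose by 1.02 ± 0.20 (SE) on the log2 scale (limma adjusted p = 0.0016), when 9.24% of all probe sets were called higher. This value lay at the size threshold and fell under it in 3 of the 15 fits that left out 1 array (without T1 replicate 1 or 2 or T3 replicate 1, lowest 0.88) and in 4 other settings, with values from 0.77 to 0.98. No single step was called, the values being -0.29, 0.58, 0.44 and -0.15 from T1 against T0 to T4 against T3. T4 exceeded T0 by 0.59 (adjusted p = 0.033), a value that turned to -0.12 with arrays centred on ribosomal proteins.

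In all, 2 of the 6 genes were called for T1 against T0, both lower, against 22.8% of all probe sets called in either direction (1092 higher and 2097 lower of 13966). An unadjusted p under 0.05 was reached in limma by 3 of the 6, those 2 and Klp61F, against 38.8% of all probe sets. For T2 against T1 1 was called, lower, against 9.64% in either direction, with 4 of 6 at an unadjusted p under 0.05, against 24.2% of all probe sets. No gene was called for T3 against T2 or for T4 against T3, where 1.44% and 1.07% of all probe sets were called in either direction. An unadjusted p under 0.05 was reached there in limma by 3 and 4 of the 6, against 13.8% and 12.8% of all probe sets. For T4 against T0 2 were called, both lower, against 24.2% called in either direction (1664 higher and 1716 lower). All 6 had an unadjusted p under 0.05 there in limma, against 41.3% of all probe sets, and 5 an adjusted p under 0.05. The 4 genes that were not called, ncd, sub, Klp61F and Klp67A, had positive log2 fold changes between 0.54 and 0.77. The arrays of the stages did not overlap for 4, 4, 2, 4 and 5 of the 6 genes in these comparisons, in the order given, against 43.9%, 29.1%, 17.9%, 17.7% and 45.9% of all probe sets. T1 against T0 and T4 against T0 share the T0 arrays. With 6 genes these shares are counts beside a background and were not tested. The median log2 fold change of the 6 was 0.02 for T1 against T0 and 0.57 for T4 against T0, against 0.08 and 0.19 over all probe sets.

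**Figure D2:**
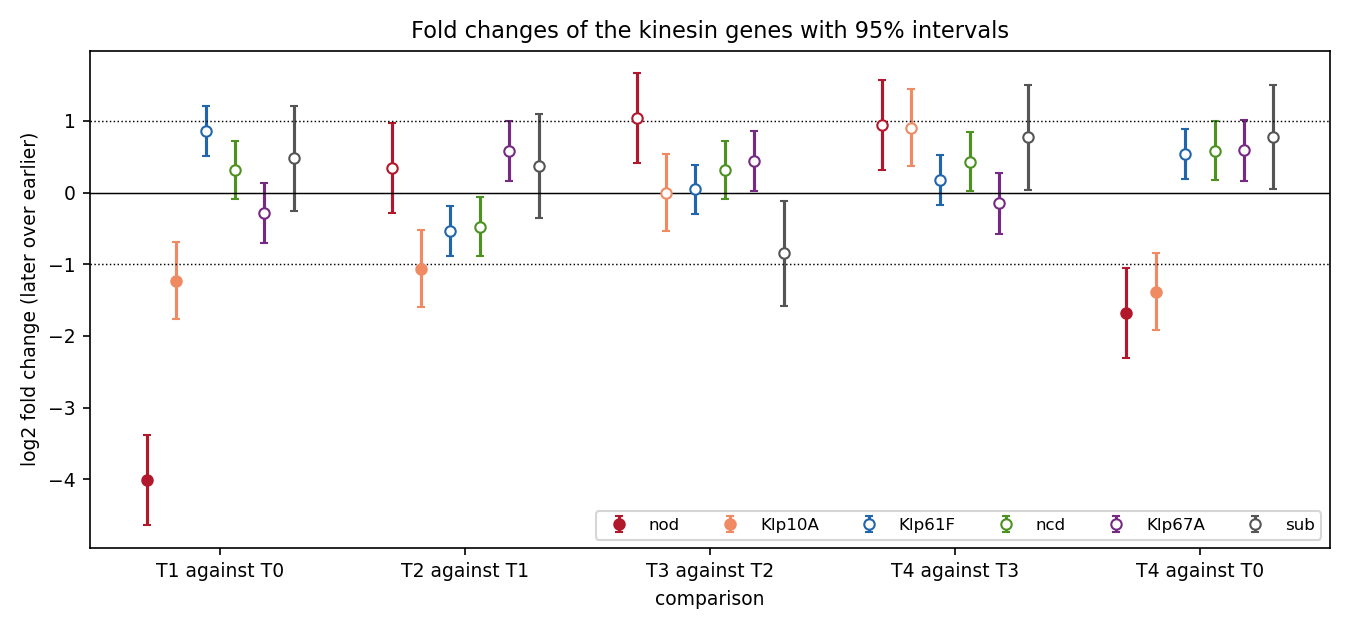
Log2 fold change, later over earlier stage (y axis), of the 6 kinesin genes in 5 comparisons (x axis), with 95% intervals from limma as bars; filled points were called, open points were not, and dotted lines mark a size of 1. For T1 against T0, nod at -4.02 and Klp10A at -1.23 lie below the lower dotted line while Klp61F at 0.86 lies under the upper one.

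The scaling of the arrays moved the median of all probe sets for T1 against T0 from 0.08 to 0.25 with centring on the array median, to -0.52 with centring on ribosomal proteins and to -0.43 with centring on the hybridisation controls. The share of higher among all called probe sets was 34.2% with the signals as deposited, 44.6% after quantile normalization, 47.7% centred on the array median, 9.10% on ribosomal proteins and 10.7% on hybridisation controls. For T4 against T0 these shares were 49.2%, 47.3%, 36.2%, 16.6% and 26.7%. The calls for nod and Klp10A at T1 and at T4, each against T0, held under all of them. The signs of ncd and sub at T1 against T0, and of ncd, Klp61F and Klp67A at T4 against T0, did not. Differences between genes of 1 array depend less on it. For T1 against T0 the log2 change of nod minus that of Klp61F was -4.88 ± 0.21 (SE), and minus that of Klp10A it was -2.79 ± 0.42 (SE). The change of Klp10A minus that of Klp61F was -2.10 ± 0.25 (SE). Each had an exact two-sided permutation p of 0.1, the smallest possible, and 0.115 after adjustment. In all 13 of the 15 pairs had this p.

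**Figure D3:**
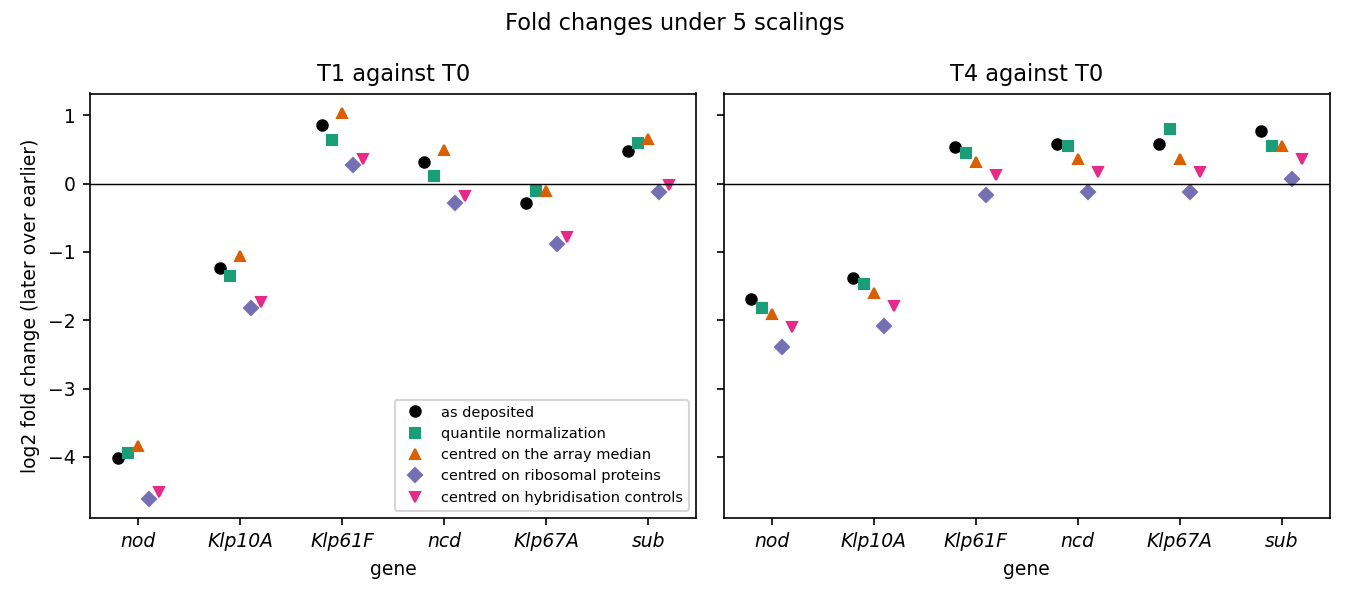
Log2 fold change (y axis) of each kinesin gene (x axis) for T1 against T0 (left) and T4 against T0 (right) with the signals as deposited and under 4 other scalings (symbols). The symbols of nod and Klp10A all lie below -1, and those of ncd lie on both sides of 0.

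Over the 15 arrays, log2 signals of the 6 genes did not move as 1 group. Pearson's r was 0.67 between nod and Klp10A, -0.69 between nod and Klp61F and 0.52 between ncd and Klp61F, and it lay between -0.46 and 0.29 for the other 12 pairs. These values describe 5 stages of 3 arrays each, and arrays share their stage and scaling. The genes most like each of the 5 kinesins that passed the F test, which leaves out sub, were sought among 6673 genes with a mean signal above the negative-control level, and their r is high in part because it is the highest of so many. Closest to nod were Cse1 (r = 0.976), CD98hc (0.967) and Rnp4F (0.962), with Cse1 at mean signals of 604, 84.7, 95.8, 172 and 225 from T0 to T4. Closest to Klp10A were wdn (0.949), Mgat1 (0.940) and GC1 (0.938), with wdn at 408, 205, 137, 138 and 209. Closest to Klp61F were the gap gene tll (0.892), halo (0.888) and ago (0.881). Of these 3, tll and halo had means of 5 and 14.8 at T0, below the negative-control level, whereas no T0 array had less than 505.1 for Klp61F. Closest to Klp67A were bbg (0.930), Atg2 (0.910) and CG1910 (0.909), and closest to ncd were Cirl (0.899), Tsp96F (0.837) and dikar (0.833). The means of bbg were 9.1 at T0 and 3.93 at T1, below the negative-control level, whereas no Klp67A array had less than 152.3. Mgat1 averaged 14.3 at T2, also below that level.

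Related genes of microtubule motors, spindles, cytokinesis and female meiosis were taken from 6 lists, without the 9 kinesins themselves. They are not all partners of the 6 measured motors, and the kinesin-1 adaptors serve a motor not analysed here. None of the measured genes of the 6 lists was called for T3 against T2 or T4 against T3 in limma, where 1.44% and 1.07% of all probe sets were. For T2 against T1, with 9.64% of all probe sets called, 2 other kinesins were higher and 0 lower, and 1 and 1 adaptors. The counts higher and lower were 2 and 2 for dynein and dynactin and 4 and 3 for spindle regulators. They were 1 and 1 for the central spindle list and 0 and 3 for female meiosis, and were not tested. Called there were neb (log2 fold change 1.44) and Khc-73 (1.05), higher, and ens (-2.29) and mei-S332 (-1.29), lower. The counts below stand beside 22.8% of all probe sets called for T1 against T0 (1092 higher and 2097 lower of 13966). For T4 against T0 the share was 24.2% (1664 higher and 1716 lower). The counts were not tested against these shares. Both the lists and this background hold genes at any signal. Klp54D, Klp59C, Kif3C and mei-P22 were at or below the negative-control level on every array, and Klp59D and Kif19A on every T0 and T4 array. Of 15 measured other kinesins and the kinesin light chain, out of 17 listed, 4 were lower and 1 higher at T1 than at T0, and 3 lower and 1 higher at T4, in all 5 and 4 called of 15. The number higher at T1 was 2 after quantile normalization and centred on the array median, and at T4 2 after quantile normalization. The kinesin-2 motor gene Klp68D averaged 16.8 ± 4.60 at T1 and 341 ± 48.1 at T0, at least 15.4-fold lower, and Kap3, which encodes the accessory subunit of kinesin-2, 3.93 ± 2.89 and 182 ± 14.1, at least 8.25-fold lower. Klc, the light chain of kinesin-1, had 13.03 ± 6.75 at T1 and 178 ± 9.91 at T0, at least 8.08-fold lower. These folds are bounds, with T1 set to 21.96, since none of the 3 arrays exceeded that level. The higher gene was cos, a kinesin-like scaffold of Hedgehog signalling, with 264 ± 29.3 at T1 and 81.5 ± 14.6 at T0. Among those not called against T0 were Klp31E, with 154 ± 26.9 and 75.3 ± 5.41, and Khc-73, with 62.2 ± 17.8 and 54.8 ± 2.52. The gene higher at T4 was neb, with 225 ± 20.3 at T4 and 92.7 ± 8.67 at T0, a call that was lost with arrays centred on the array median, on ribosomal proteins or on hybridisation controls. At T4 Kap3 and Klc averaged 9.60 and 15.7, below the negative-control level.

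Kinesin-1 reaches its cargoes through the light chain and other adaptors. Of 8 measured adaptor genes of 9 listed, 3 were lower at T1 than at T0 (22.8% of all probe sets were called) and none higher, although 1 was higher after quantile normalization and 2 centred on the array median. Besides Klc they were Unc-76, with 33.8 ± 16.6 and 157 ± 13.97, and syd, with 40.2 ± 32.7 and 115 ± 15.5. At T4 4 were lower than at T0 (2 after quantile normalization), including ens, a microtubule-binding activator of kinesin-1 (81.0 ± 24.5 and 272 ± 41.5), and 1 higher, Pat1 (161 ± 65.5 and 53.7 ± 2.80), which was not called with the ribosomal or hybridisation-control centring. Miro, the mitochondrial anchor, and Aplip1, a scaffold, were not called, with 157 ± 49.2 and 26.2 ± 4.00 at T1 and 83.1 ± 19.0 and 36.7 ± 8.28 at T0.

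Dynein, the minus-end motor that opposes kinesins, works with its activator dynactin. Of 15 measured subunits and adaptors of 17 listed, 6 were lower and 2 higher at T1 than at T0, against 22.8% of all probe sets called. The heavy chain gene Dhc64C averaged 31.9 ± 16.6 at T1 and 690 ± 130 at T0, with a log2 fold change of -4.25 ± 0.31 (SE) and a limma adjusted p of 1.2e-07. The RNA-transport adaptor gene egl had 27.8 ± 14.3 and 189 ± 20.5, and the light intermediate chain gene Dlic 58.7 ± 8.41 and 333 ± 38.5. The 2 higher genes were ctp, a light chain (1864 ± 26.3 and 899 ± 75.9), and DCTN6-p27 (168 ± 15.9 and 74.0 ± 24.5), and neither was called with the ribosomal or hybridisation-control centring. The light chain gene robl, with 665 ± 36.6 and 413 ± 77.1, and the dynactin gene DCTN2-p50, with 501 ± 72.6 and 324 ± 27.8, were not called. At T4 6 were lower and 1 higher than at T0, against 24.2% of all probe sets called, and none was higher with the ribosomal or hybridisation-control centring. Dhc64C averaged 195 ± 14.5 there, and the adaptor gene BicD 17.0 ± 8.74, against 296 ± 23.7 at T0. The median of the list was 0.15 for T1 against T0, and -0.44 and -0.35 with those centrings.

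Of 22 measured spindle and microtubule regulators of 30 listed, 12 were lower and 1 higher at T1 than at T0, against 2097 lower and 1092 higher of 13966 probe sets. The median log2 fold change was -1.47, against 0.08 over all probe sets. Under the other scalings 11 to 14 were lower. The maternal gamma-tubulin gene gammaTub37C averaged 23.1 ± 19.4 at T1 and 716 ± 51.5 at T0, and Grip84, a subunit of the gamma-tubulin complex, 17.4 ± 8.70 and 474 ± 14.7. The katanin subunit gene kat80 had 8.67 ± 7.71 and 341 ± 51.9, at least 15.4-fold lower. The tubulin-binding gene stai had 14.1 ± 1.46 and 194 ± 6.06, at least 8.82-fold lower. The higher gene, Grip75, had 98.3 ± 12.8 and 42.6 ± 10.5, and it was not called with the ribosomal or hybridisation-control centring. Kat60 and mars were not called, with 350 ± 50.6 and 271 ± 47.8 at T1 and 270 ± 29.4 and 206 ± 47.3 at T0. By T4 9 were lower than at T0, against 1716 of 13966 probe sets, and 9 to 14 under the other scalings, 14 with the ribosomal centring. The microtubule polymerase gene msps, chosen after its values were seen, averaged 519 ± 54.8, 93.9 ± 26.0, 175 ± 24.3, 295 ± 34.6 and 527 ± 67.3 from T0 to T4. It was called lower at T1 than at T0, and none of its later steps was called.

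The central spindle forms between separating chromosomes and directs cytokinesis. Of 11 measured central spindle, passenger and cytokinesis genes of 17 listed, none was lower and 1 higher at T1 than at T0, and 5 were higher at T4, against 22.8% and 24.2% of all probe sets called. At T1 4 were higher centred on the array median, and 1 was lower and none higher with the ribosomal and with the hybridisation-control centring. The median log2 fold change was 0.76 at T1 and 0.99 at T4, 0.16 and 0.28 with arrays centred on ribosomal proteins. Septin1 averaged 1007 ± 184 at T1 and 471 ± 63.7 at T0. At T4 the formin gene dia had 216 ± 24.7 and at T0 72.2 ± 1.56, and the passenger gene borr 1800 ± 542 and 708 ± 85.7. The number called higher at T4 was 7 after quantile normalization, 3 centred on the array median, 0 centred on ribosomal proteins and 1 on hybridisation controls. Among those not called were feo, a crosslinker of the central spindle (601 ± 59.9 at T1 and 926 ± 106 at T0), and Incenp, the scaffold of the passenger complex (829 ± 96.6 and 429 ± 34.4).

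The proteins of nod, sub and ncd act in female meiosis. Of 15 measured genes of 16 listed besides these, 6 were lower and 1 higher at T1 than at T0, and 7 lower and none higher at T4, against 22.8% and 24.2% of all probe sets called. The number higher at T1 was 2 centred on the array median and 0 with the ribosomal or hybridisation-control centring, and at T4 1 after quantile normalization. The Polo inhibitor gene mtrm averaged 15 ± 11.2 at T1 and 480 ± 23.2 at T0, and alphaTub67C, a maternal alpha-tubulin, 77.0 ± 13.4 and 1616 ± 196. Both stayed low, at 8.93 ± 4.45 and 74.4 ± 24.6 at T4, whereas nod was higher at T4 than at T1, a difference between genes that was not tested. A return was not particular to nod. In this list mei-41, chosen after its values were seen, averaged 72.3, 29.1, 55.3, 77.8 and 107 from T0 to T4. Among the spindle regulators spd-2, chosen likewise, averaged 937, 132, 362, 584 and 766. Both were called lower at T1 than at T0. fzy, an activator of the anaphase-promoting complex, and mei-S332, a protector of sister cohesion, were not called against T0, with 605 ± 78.0 and 219 ± 31.1 at T1 and 310 ± 21.2 and 148 ± 0.808 at T0.

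**Figure D4:**
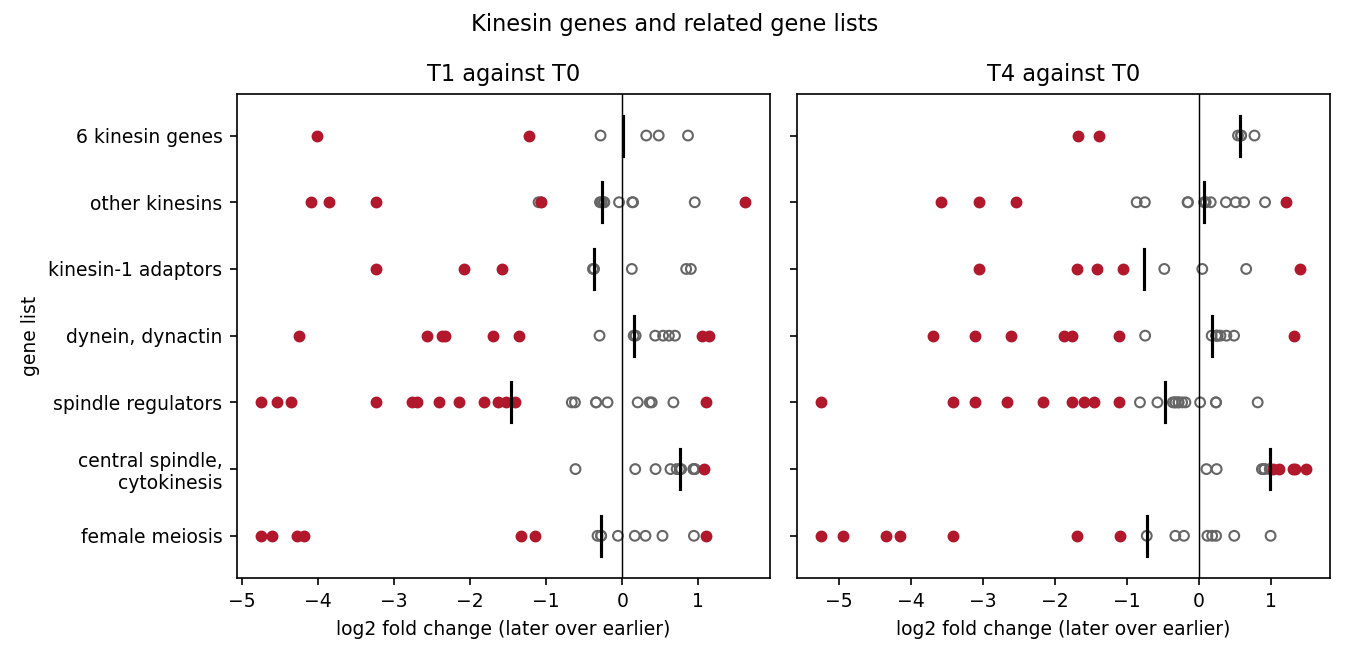
Log2 fold change, later over earlier stage (x axis), of the 6 kinesin genes and of the measured genes of 6 lists (y axis) for T1 against T0 (left) and T4 against T0 (right); filled red points were called, open points were not, and black bars are medians. Spindle regulators hold 12 lower calls at T1, and the central spindle list has no lower call, though 1 at T1 with the ribosomal or hybridisation-control centring.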

How the data were processed

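The deposited table holds 1 linear signal intensity per probe set and array. MAS5 is named for these intensities per the submitters' processing notes, and its version is not given in the sources used here. The 44 control probe sets were left out, and 13966 were tested as log2(signal + 7.3), the pseudocount being the median of the arrays' lower quartiles. Symbols came from the platform annotation, updated through Entrez identifiers. All 15 arrays entered 1 model in limma 3.58.1 (R 4.3.3) with a mean for each stage, with eBayes and Benjamini-Hochberg adjustment over all probe sets. Of each gene the probe set with the highest mean was used. Named were all measured kinesins, and of each list up to 3 called genes per direction for T1 and T4 against T0 and the 2 brightest uncalled genes, and the 3 genes most like each kinesin that passed the F test. The members, lists and tests were chosen with earlier results of these data known. The fit was tested on simulated data. No detection calls were used, and no sequence is shown.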

Additional observations from a re-analysis of the deposited data

How the results depend on the processing

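The calls of nod and Klp10A lower at T1 and at T4, each against T0, held under all 11 other settings and in all 15 fits without 1 array, where 2 genes were called lower in each. The number of genes called lower for T2 against T1, 1 (Klp10A), was 0 after quantile normalization, with the hybridisation-control centring (added after seeing the data), with a pseudocount at the median signal, with the replicate number as a block and with only the arrays of both stages, and 0 to 1 without 1 array. The number called higher for T1 against T0, 0, was 1 (Klp61F) centred on the array median. For T3 against T2 it was 1 (nod) with an intensity trend and robust settings, and 0 to 1 without 1 array. For T4 against T0 it was 0 to 1 (sub) without 1 array. The number that changed at any stage, 5, was 2 with the hybridisation-control centring and 4 with ribosomal centring (without Klp61F, adjusted p = 0.067), with pseudocount 1 (without ncd, 0.054) and with the replicate block (without ncd, 0.091). Without 1 array it was 4 to 5. Among all probe sets, the 1092 called higher at T1 than at T0 became 322 with the ribosomal centring, 342 with the hybridisation-control centring, 680 with the larger pseudocount of 29.6 and 1716 centred on the array median. The 1664 higher at T4 became 678, 899 and 1048 under the first 3 of these, and the 2097 and 1716 lower at T1 and T4 became 3217 and 3403 with the ribosomal centring.

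Signs turned for genes that were not called. With ribosomal centring they were 0.13 (Klp10A, T3 against T2), -0.16, -0.12 and -0.12 (Klp61F, Klp67A and ncd, T4 against T0) and -0.28 and -0.11 (ncd and sub, T1 against T0). With the hybridisation-control centring they were -0.15 (Klp61F, T3 against T2) and -0.19 and -0.023 (ncd and sub, T1 against T0). Without 1 array the range was -0.16 to 0.14 for Klp10A and -0.020 to 0.13 for Klp61F (T3 against T2), and -0.028 to 0.54 for nod (T2 against T1). The cause was not tested. Same-numbered arrays of different stages had deviations that correlated between -0.04 and 0.08 over 23 pairs. No pairing by number was seen, though the labels do not say what the numbers stand for, so a shared collection or batch remains possible. The block changed no call other than that of Klp10A for T2 against T1 and the F test of ncd. Each kinesin had 1 probe set, so no other could be tried.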
